A study of Mus musculus with 6 samples.

Results

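Described here are 29 genes of cholesterol and fatty acid synthesis, chosen by name as known parts of the pathway that sterol regulatory element-binding proteins (SREBPs) control. They were looked up among the 27998 genes of a single-cell count table from mouse dorsal root ganglia, and 29 of 29 had a row. Of these, 7 encode enzymes of the mevalonate pathway, 11 the enzymes that turn its product into cholesterol, 5 the SREBPs and their regulators, 1 a sterol carrier and 5 enzymes that make fatty acids. Dorsal root ganglia hold the cell bodies of sensory neurons. Cells came from 3 groups of 2 mice, each with 1 female and 1 male. Mice 654 and 657 were Ttpa-/- on a diet lacking vitamin E (deficient), mice 670 and 671 were Ttpa-/- with vitamin E added to the diet (supplemented), and mice 698 and 699 were Ttpa+/+ on a basal diet (wild type). The Ttpa-/- mice were 6 months old and the wild type mice 5 months, so genotype cannot be told apart from age, nor from the difference between the basal and the 2 other diets. Ttpa encodes a liver protein that loads vitamin E for transport in the blood. Its own transcript gave 4 and 5 unique molecular identifiers (UMIs, counted RNA molecules) in the deficient libraries, 1 and 4 in the supplemented and 0 and 0 in the wild type libraries, too few to check the genotype labels.

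SREBPs are transcription factors held in the membrane of the endoplasmic reticulum by SCAP and the INSIG proteins. When membrane sterols run low, SCAP escorts the SREBP to the Golgi, where it is cut and its freed part enters the nucleus and switches on genes of sterol and fatty acid synthesis. Cholesterol hardly crosses from plasma lipoproteins into neurons of the brain, which rely on local synthesis, and peripheral axons and their glia need large amounts of membrane sterol.

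The promoters of 4 members are shown: Insig1, which had the smallest p of the members between groups in both comparisons with wild type, and Hmgcs1, Mvd and Ebp, which lie at different steps of the pathway. Across the neuron classes Mvd and Ebp shared their highest class (NP1-like) and their lowest (NF-like). Hmgcs1 differed, with PEP-like neurons highest and NP3-like neurons lowest. Each stretch holds 200 bases upstream of the gene start, read 5′ to 3′ on the gene's strand from RefSeq on GRCm38.p6, and ends before the first base of the gene in both RefSeq and GENCODE. Capitals mark CCAAT (the NF-Y box, a site of a frequent SREBP partner), GGGCGG (the Sp1 box) and CACCCCAC (the core of the sterol regulatory element), each on either strand.
Insig1, chr5:28071163-28071362, plus strand: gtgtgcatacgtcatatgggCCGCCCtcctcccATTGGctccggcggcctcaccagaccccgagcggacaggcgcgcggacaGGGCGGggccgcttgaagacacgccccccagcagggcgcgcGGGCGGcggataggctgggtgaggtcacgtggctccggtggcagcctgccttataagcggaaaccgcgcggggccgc
Hmgcs1, chr13:119690151-119690350, plus strand: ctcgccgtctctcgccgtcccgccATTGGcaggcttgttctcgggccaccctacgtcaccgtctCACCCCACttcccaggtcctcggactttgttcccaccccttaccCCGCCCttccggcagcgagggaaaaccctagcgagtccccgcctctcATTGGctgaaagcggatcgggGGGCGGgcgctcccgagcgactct
Mvd, chr8:122443423-122443622, minus strand: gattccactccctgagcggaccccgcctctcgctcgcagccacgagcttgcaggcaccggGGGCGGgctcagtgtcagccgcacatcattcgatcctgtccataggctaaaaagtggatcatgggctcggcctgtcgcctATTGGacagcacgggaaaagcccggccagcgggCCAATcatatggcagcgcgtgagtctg
Ebp, chrX:8193513-8193712, minus strand: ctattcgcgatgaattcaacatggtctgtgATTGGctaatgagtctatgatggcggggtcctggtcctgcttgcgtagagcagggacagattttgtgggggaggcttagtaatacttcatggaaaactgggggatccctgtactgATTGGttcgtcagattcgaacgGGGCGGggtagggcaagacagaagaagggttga

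RefSeq windows of 300 bases (250 before the start and 50 after) were at hand for 23 of the 29 members. The other 6 were Sqle, Fdft1, Stard4, Scd2, Fdps and Scd1. CCAAT stood in the windows of 20 of the 23, against 41.1% of all 27025 genes with a window. GGGCGG stood in 20 of 23, against 38.2% of all genes. CACCCCAC stood in 2 of 23, Acat2 and Hmgcs1, against 3.30% of all genes. Of the stretches shown, Hmgcs1 is the 1 with this last motif, and its 2 CCAAT boxes stand on the other strand as ATTGG. These matches describe letters in a window and show no binding.

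The table held 21685 cells, and the 6 libraries held between 12538785 and 19383933 UMIs each. After filters and removal of doublets, 21024 cells were kept and grouped into 22 clusters by genes other than the 29, so that the members did not define the groups they are compared across. Clusters were named by marker genes. Neurons made up between 2770 and 3838 cells per mouse, and 7 named neuron classes held 20 or more cells in every mouse. Neuron clusters 13 and 15 also did, but were not named by markers, and they were left out of the comparison of classes. The names follow published markers and carry the word "like". NP1-like neurons (Mrgprd, Lpar3), NP2-like neurons (Mrgpra3) and NP3-like neurons (Sst, Nppb) are classed as nonpeptidergic nociceptor and itch neurons. PEP-like neurons (Sstr2, Adcyap1, Gal) are peptidergic nociceptors and TH-like neurons (Th, Slc17a8) are C-fibre touch neurons. NF-like neurons (Nefh, with Pvalb or Calb1 in some clusters) are myelinated neurons, and TRPM8-like neurons (Trpm8, Foxp2) sense cold. In PEP-like, NF-like, TH-like and NP1-like neurons several clusters were joined. TRPM8-like neurons were few, with 20 cells in mouse 699, and their values are the least precise. Levels are UMIs per 1000000 UMIs of the same cells (CPM), as lowest, median and highest of the 6 mice. With 3' UMI counts of pooled cells, fewer transcribing cells and less RNA per cell cannot be told apart.

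Most members differed between neuron classes, and among the 7 named classes the members' summed level was highest in NP1-like and lowest in NP3-like neurons. Of the 29 members, 13 had their highest median level in NP1-like, 11 in PEP-like, 3 in TH-like and 2 in TRPM8-like neurons. The lowest median stood in NP3-like neurons for 15 members, in NP2-like for 6, in TRPM8-like for 4, in NF-like for 3 and in TH-like for 1. Summed over the 29 genes, NP1-like neurons held 4552, 4918 and 5157 CPM, PEP-like neurons 3913, 4366 and 4596, and NP3-like neurons 2191, 2562 and 2688. The NP1-like sums lay above those of NP3-like neurons in 6 of 6 mice. NP1-like cells were also the deepest class, with a median of 7500 UMIs per cell against 3678 in NP3-like and 3564 in PEP-like cells. The UMI sums of all 7 classes were thinned to the smallest sum, which belonged to TRPM8-like neurons. Of 58 calls of a member in a class, 29 were kept, 25 were lost and 4 changed sign. With TRPM8-like neurons left out, a choice made after seeing the data, 117 of 136 calls were kept, 17 were lost and 2 changed sign. The heat map of median levels shows each member across the classes.

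**Figure D1:**
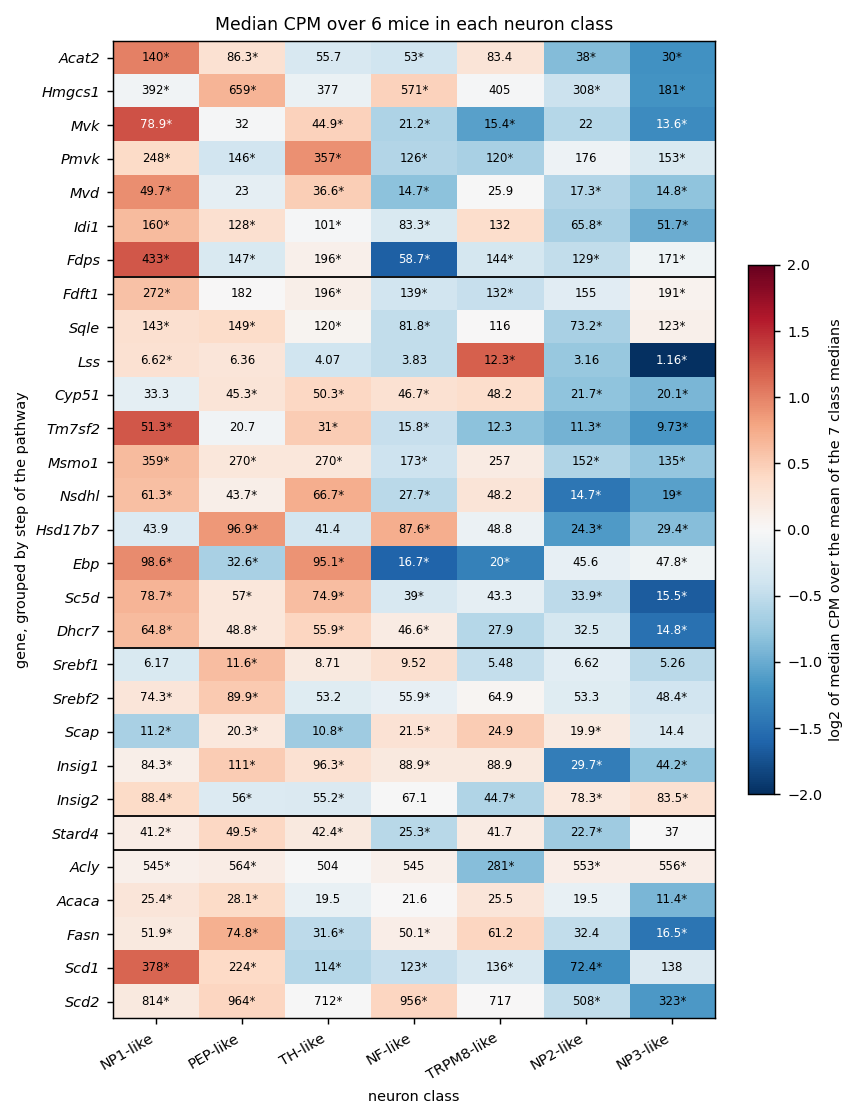
Median CPM over 6 mice of each of the 29 genes (rows, grouped by step) in each of 7 neuron classes (columns). Colour gives the log2 of that median over the mean of the 7 class medians, and an asterisk marks an edgeR adjusted p under 0.05 against the other classes. Fdps, Scd1, Mvk and Tm7sf2 are strongest in the NP1-like column, and the NP3-like and NP2-like columns are mostly blue.

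Each class was tested against the unweighted mean of the other 6, with the mouse as a block and p adjusted over the 11564 genes tested. NP1-like neurons had 25 members higher and 1 lower, where 34.7% of all genes were higher and 31.1% lower. The median log2 difference of the members there was 0.78, against -0.02 over all genes. PEP-like neurons had 20 members higher and 4 lower, where 38.6% and 22.1% of all genes were called. Their median was 0.37, against 0.10 over all genes. TH-like neurons had 17 higher and 4 lower, beside 36.4% and 26.7% of all genes, with a median of 0.22 against 0.05. These were the 3 classes in which more members were called higher than lower.

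The other 4 classes went the other way. NP3-like neurons had 6 members higher and 19 lower, where 30.2% of all genes were higher and 24.4% lower, and the members' median was -0.76 against 0.02. NP2-like neurons had 3 higher and 16 lower, beside 27.8% and 20% of all genes, with a median of -0.37 against 0.03. NF-like neurons had 8 higher and 16 lower, beside 40.6% and 30.4%, with a median of -0.32 against 0.07. TRPM8-like neurons had 1 higher and 8 lower, beside 13.4% and 18.3%, and there the members' median of -0.15 equalled that of all genes. Over the 7 classes 148 pairs of member and class passed, 80 higher and 68 lower. When any 1 mouse was left out, 128 of the 148 pairs kept their call.

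The mevalonate pathway builds isoprene units from acetyl-CoA. Fdps, on chr3:89093588-89101959, encodes the enzyme that makes farnesyl diphosphate, from which sterols and protein lipid anchors branch. In NP1-like neurons it stood at 408, 433 and 471 CPM, and in NF-like neurons, where it was lowest, at 43.2, 58.7 and 69.2 CPM. No other class reached the NP1-like values in any mouse, and the NF-like values lay below those of every other class. The medians differed 7.38 times. Against the other classes the log2 difference was 1.89 ± 0.05 (SE; edgeR adjusted p = 1.1e-52) in NP1-like and -1.78 ± 0.08 (adjusted p = 4.8e-37) in NF-like neurons. Counted per cell, NP1-like neurons held a median of 320 Fdps UMIs per 100 cells and NF-like neurons 30.8, although NF-like cells were nearly as deep (6250 UMIs per cell).

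Mvk, which phosphorylates mevalonate, was also highest in NP1-like neurons and had its lowest median in NP3-like neurons. It stood at 68.4, 78.9 and 105 CPM in NP1-like neurons, against 10.6, 13.6 and 18.1 CPM in NP3-like neurons. The NP1-like values again lay above all others (log2 2.00 ± 0.08, adjusted p = 4.0e-38), and NP3-like neurons were lower by the same test (-1.13 ± 0.18, adjusted p = 1.2e-07). Acat2, the cytosolic thiolase that joins acetyl-CoA units at the start of the pathway, had 119, 140 and 155 CPM in NP1-like neurons and 16.4, 29.99 and 46.5 CPM in NP3-like neurons (1.53 ± 0.06 and -1.13 ± 0.11, adjusted p = 1.5e-39 and 2.1e-15). Its NP1-like values did not overlap those of any other class. Idi1, which interconverts the isoprene units, was likewise higher in NP1-like neurons (147, 160 and 173 CPM; 1.05 ± 0.05) and lower in NP3-like neurons (43.0, 51.7 and 65.2 CPM; -0.94 ± 0.08). Mvd, which forms the first isoprene unit, had 43.8, 49.7 and 66.8 CPM in NP1-like neurons and 12.98, 14.7 and 19.0 CPM in NF-like neurons (1.44 ± 0.08 and -0.90 ± 0.13).

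Pmvk and Hmgcs1 kept a different order. Pmvk, on chr3:89454541-89469013, phosphorylates mevalonate a further time, and it peaked in TH-like neurons with 316, 357 and 375 CPM. NP1-like neurons followed with 227, 248 and 313 CPM, and TRPM8-like neurons were lowest with 84.3, 120 and 230 CPM. The TH-like values lay above those of every other class (1.23 ± 0.05, adjusted p = 7.4e-38). Hmgcs1, on chr13:119690379-119708260, encodes the cytosolic HMG-CoA synthase. Its level was 584, 659 and 671 CPM in PEP-like neurons and 527, 571 and 596 CPM in NF-like neurons, which overlapped, against 140, 181 and 232 CPM in NP3-like neurons, which overlapped no other class. The differences from the other classes were 0.81 ± 0.04 in PEP-like, 0.56 ± 0.04 in NF-like and -1.20 ± 0.06 in NP3-like neurons (adjusted p = 4.3e-32, 3.0e-21 and 6.2e-34). Per 100 cells the order differed, with 359 Hmgcs1 UMIs in NF-like, 278 in NP1-like and 238 in PEP-like neurons. In NP1-like neurons the sign of Hmgcs1 depended on the measure. Its CPM lay below the mean CPM of the other classes in 6 of 6 mice (medians 391.7 and 422 CPM). The edgeR fit, which compares log levels after TMM scaling, gave 0.19 ± 0.04.

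**Figure D2:**
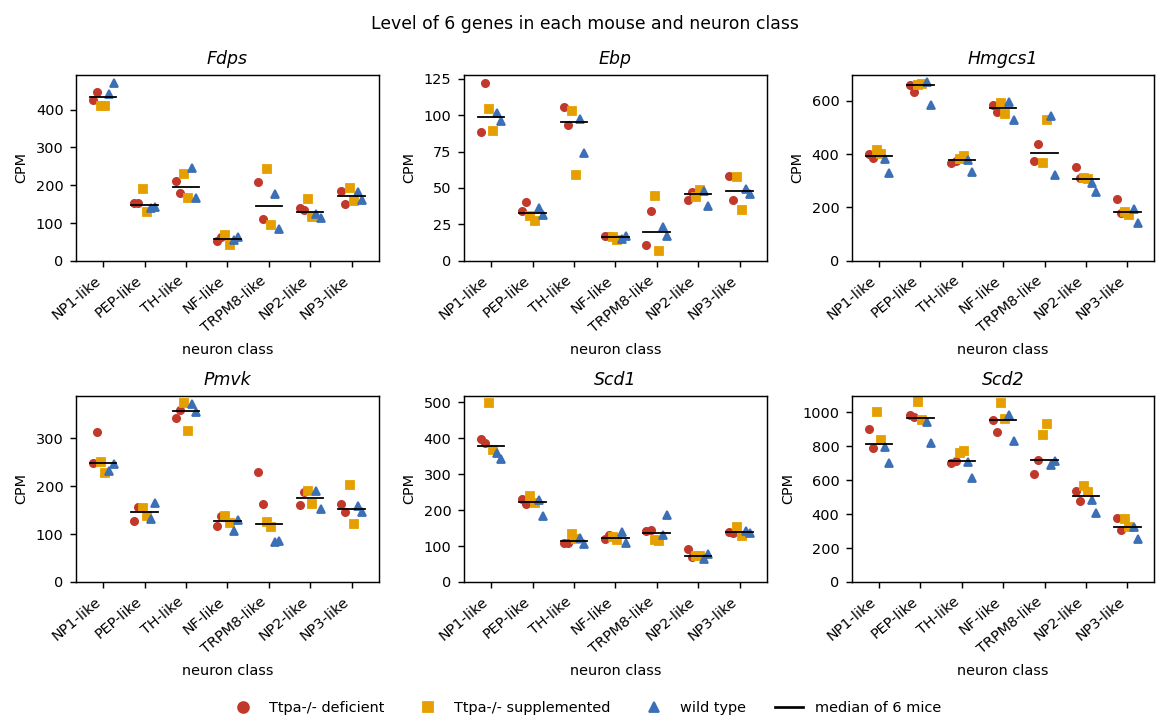
Level of Fdps, Ebp, Hmgcs1, Pmvk, Scd1 and Scd2 in CPM (vertical axes, each from 0) for each of 6 mice in 7 neuron classes, with a line at the median. Fdps and Scd1 stand apart in NP1-like, Pmvk in TH-like neurons, and Hmgcs1 and Scd2 are lowest in NP3-like neurons, with the 3 groups of mice intermixed within most classes.

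The sterol branch begins with Fdft1 and Sqle, which make squalene and oxidise it. Fdft1 had 263, 272 and 310 CPM in NP1-like neurons, above every other class, and 102, 132 and 146 CPM in TRPM8-like neurons, where it was lowest (0.95 ± 0.05 and -0.87 ± 0.14, adjusted p = 4.2e-33 and 2.3e-07). Sqle had its highest median in PEP-like neurons, with 136, 149 and 166 CPM, and its lowest in NP2-like neurons, with 60.5, 73.2 and 85.7 CPM (0.44 ± 0.05 and -0.59 ± 0.08). Lss, which closes the sterol ring, was near the detection limit, with 4.97, 6.62 and 8.70 CPM in NP1-like and 0, 1.16 and 3.78 CPM in NP3-like neurons (0.81 ± 0.19 and -1.84 ± 0.40). Its apparent peak in TRPM8-like neurons (0, 12.3 and 54.8 CPM) rested on 3.38 UMIs per 100 cells, and its call there was lost without mouse 654 (log2 1.40, adjusted p = 0.11, against 1.97 with all mice).

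Among the later steps, Ebp was the most uneven. It encodes the sterol isomerase that moves a ring double bond, and lies on chrX:8185329-8193512. NP1-like neurons had 88.2, 98.6 and 122 CPM, TH-like neurons 59.1, 95.1 and 105 CPM and NF-like neurons 14.4, 16.7 and 17.4 CPM. The first 2 classes overlapped each other and stood above every value of the rest (1.64 ± 0.07 and 1.31 ± 0.08, adjusted p = 2.5e-37 and 1.8e-28). NF-like neurons were lower (-1.67 ± 0.14, adjusted p = 7.6e-19) and overlapped TRPM8-like neurons alone. Tm7sf2, a sterol reductase, had 48.7, 51.3 and 56.5 CPM in NP1-like and 6.67, 9.73 and 12.8 CPM in NP3-like neurons (1.85 ± 0.10 and -1.10 ± 0.21). Sc5d, the desaturase of the sterol ring, had 72.3, 78.7 and 95.6 CPM in NP1-like and 10.6, 15.5 and 28.0 CPM in NP3-like neurons (1.20 ± 0.07 and -1.64 ± 0.14). Dhcr7, which completes cholesterol, had 49.6, 64.8 and 66.8 CPM in NP1-like and 12.5, 14.8 and 20.8 CPM in NP3-like neurons (0.97 ± 0.07 and -1.47 ± 0.14). All 3 genes thus had their highest and lowest medians in the same pair of classes.

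The enzymes that remove methyl groups from the ring did not share 1 order. Msmo1 had 319, 359 and 461 CPM in NP1-like and 103, 135 and 168 CPM in NP3-like neurons (1.10 ± 0.05 and -0.79 ± 0.07). Nsdhl, on the X chromosome, had 57.5, 66.7 and 75.7 CPM in TH-like neurons and 51.9, 61.3 and 74.0 CPM in NP1-like neurons, which overlapped, against 8.84, 14.7 and 23.3 CPM in NP2-like neurons (1.20 ± 0.08, 1.17 ± 0.07 and -1.34 ± 0.15). Hsd17b7 went with PEP-like and NF-like neurons instead. It had 86.3, 96.9 and 105 CPM in PEP-like and 79.0, 87.6 and 95.1 CPM in NF-like neurons, against 15.1, 24.3 and 34.7 CPM in NP2-like neurons (1.06 ± 0.06, 0.88 ± 0.07 and -1.01 ± 0.12). Cyp51, a sterol demethylase of the cytochrome P450 family, was highest in TH-like neurons (41.3, 50.3 and 59.1 CPM; 0.64 ± 0.08) and lowest in NP3-like neurons (9.82, 20.1 and 23.2 CPM; -1.06 ± 0.13). In NP1-like neurons neither Hsd17b7 nor Cyp51 passed the test (-0.00 ± 0.08 and 0.02 ± 0.08).

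Among the regulators, Srebf2, the SREBP of sterol genes, had 76.0, 89.9 and 97.7 CPM in PEP-like and 44.5, 48.4 and 49.5 CPM in NP3-like neurons (0.62 ± 0.06 and -0.33 ± 0.09, adjusted p = 1.6e-15 and 0.0018). Srebf1, the SREBP of fatty acid genes, stayed between class medians of 5.26 CPM (NP3-like) and 11.6 CPM (PEP-like), and its 1 call, in PEP-like neurons (0.39 ± 0.14, adjusted p = 0.015), was lost without mouse 657 or 698 (adjusted p = 0.070 and 0.098). Scap was the 1 member called lower in NP1-like neurons, with 7.39, 11.2 and 14.2 CPM there, against 19.0, 21.5 and 29.5 CPM in NF-like neurons (-0.52 ± 0.13 and 0.43 ± 0.12, adjusted p = 3.5e-04 and 0.0010). NP1-like neurons, which were highest for most enzymes, thus stood low for Scap, but not alone. The lowest Scap median was in TH-like neurons (10.8 CPM). The highest was in TRPM8-like neurons (24.9 CPM), where it rested on at most 3 UMIs in a mouse.

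The 2 INSIG genes, whose proteins hold SCAP back, had unlike orders. Insig1, itself a known SREBP target on chr5:28071363-28078662, was highest in PEP-like neurons (71.2, 111 and 126 CPM) and TH-like neurons (68.1, 96.3 and 155 CPM), and lowest in NP2-like neurons (26.4, 29.7 and 37.2 CPM). The differences from the other classes were 0.58 ± 0.06, 0.69 ± 0.07 and -1.23 ± 0.11 (adjusted p = 9.5e-14, 3.1e-16 and 8.7e-17). Insig2 was higher in the classes named nonpeptidergic. It had 84.2, 88.4 and 103 CPM in NP1-like, 75.3, 83.5 and 123 CPM in NP3-like and 67.1, 78.3 and 109 CPM in NP2-like neurons. These values all overlapped. NP2-like neurons also held the PEP-like markers, at a median sum of 7800 CPM against 8456 CPM in PEP-like neurons. Insig2 was 1 of 3 members called higher in NP2-like neurons (0.42 ± 0.09) and 1 of 6 in NP3-like neurons (0.47 ± 0.09). Stard4, a carrier that moves cholesterol between membranes, had 43.9, 49.5 and 64.1 CPM in PEP-like and 17.9, 22.7 and 30.8 CPM in NP2-like neurons (0.50 ± 0.07 and -0.56 ± 0.12).

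Fatty acid synthesis showed 2 patterns. Fasn, the fatty acid synthase, had 63.3, 74.8 and 85.2 CPM in PEP-like and 11.3, 16.5 and 18.1 CPM in NP3-like neurons, whose values overlapped no other class (0.94 ± 0.07 and -1.57 ± 0.13, adjusted p = 1.2e-23 and 2.3e-19). Acaca, which makes malonyl-CoA for it, ran in the same direction in the same classes (23.4, 28.1 and 33.3 CPM, and 6.28, 11.4 and 20.3 CPM; 0.37 ± 0.10 and -0.83 ± 0.16). Scd2, a desaturase that makes monounsaturated fatty acids, had 820, 964 and 1058 CPM in PEP-like neurons, 831, 956 and 1053 CPM in NF-like neurons and 252, 323 and 375 CPM in NP3-like neurons (0.52 ± 0.04, 0.47 ± 0.04 and -1.18 ± 0.05). The other desaturase, Scd1, instead peaked in NP1-like neurons as Fdps did, but ordered the other classes differently. It had 341, 378 and 497 CPM in NP1-like neurons, above every other class, and 62.7, 72.4 and 92.1 CPM in NP2-like neurons, below every other class (1.81 ± 0.05 and -1.05 ± 0.08, adjusted p = 1.2e-55 and 1.9e-21). Among the named classes Acly, which supplies cytosolic acetyl-CoA, was nearly flat, with medians from 504 to 564 CPM in 6 classes. It was lower in TRPM8-like neurons alone (268, 281 and 420 CPM, difference -1.11 ± 0.09, edgeR adjusted p = 1.1e-18). The unnamed neuron clusters were not part of this comparison. The one with Dcn among its leading genes had 1015 to 1401 CPM of Acly, above every named class in each mouse. The other unnamed cluster had 579 to 660 CPM.

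Within classes the clusters could differ as much as the classes did, which is given as a description because clusters were not tested against each other. The clearest case was in TH-like neurons, where cluster 10 was led by Ceacam10 and Th and cluster 0 by Slc17a8 and Zfp521. Fdps stood at 267, 281 and 310 CPM in cluster 10 and at 78.7, 83.9 and 108 CPM in cluster 0, with no overlap. Ebp had 89.9, 125 and 146 CPM in cluster 10 and 34.2, 40.9 and 51.2 CPM in cluster 0. Mvk had 54.0, 62.0 and 66.3 CPM in cluster 10 and 18.5, 22.5 and 27.3 CPM in cluster 0. The mevalonate genes Fdps, Mvk and Pmvk and the sterol gene Ebp were thus higher in cluster 10. Hmgcs1 went the other way, with 246, 328 and 339 CPM in cluster 10 and 393, 441 and 492 CPM in cluster 0. Cluster 0 made up 50% and 62.5% of TH-like cells in deficient, 39.6% and 65.9% in supplemented and 43.1% and 71.8% in wild type mice, so its share varied within each group.

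The 3 NP1-like clusters were alike in Fdps (medians of 437, 428 and 418 CPM in clusters 1, 9 and 17) but not in Insig1. Insig1 had 162, 185 and 211 CPM in cluster 9 (led by Lpar3, Mrgprd and Nupr1), 36.8, 51.3 and 57.5 CPM in cluster 1 and 54.1, 82.2 and 110 CPM in cluster 17 (led by Cyp26b1). In PEP-like neurons Scd1 had 296, 330 and 366 CPM in cluster 8 (led by Fgg and Tac1) and 88.4, 105 and 127 CPM in cluster 2 (with Kit and Bmpr1b), without overlap. Hsd17b7 ran opposite, with 49.0, 58.5 and 64.5 CPM in cluster 8 and 143, 153 and 184 CPM in cluster 2. Among NF-like clusters Fdps was lowest in cluster 21, led by Calb1 (16.7, 23.3 and 44.2 CPM), and Hmgcs1 highest in cluster 5, which expressed Ntrk2 (680, 753 and 829 CPM). Summed over the members, the clusters' medians ran from 2562 CPM in the NP3-like cluster to 5371 CPM in unnamed neuron cluster 15, whose leading genes were Dcn and Nhlh2. PEP-like cluster 14 followed with 5032 CPM, also above the NP1-like clusters (4938, 4907 and 4583 CPM in clusters 1, 9 and 17).

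The 20 pairs of member and class whose call ended without 1 mouse had mostly small differences. In TRPM8-like neurons these were Mvk, Fdps, Insig2 and Lss, with largest adjusted p without a mouse of 0.13, 0.23, 0.052 and 0.11. In NP3-like neurons they were Sqle, Fdps, Ebp and Pmvk (0.17, 0.14, 0.23 and 0.15). In NP2-like neurons they were Mvd, Fdps, Sc5d, Tm7sf2 and Scap (0.13, 0.11, 0.095, 0.080 and 0.072). In PEP-like neurons they were Fdps, Scap, Srebf1 and Acly (0.10, 0.12, 0.098 and 0.052), in NF-like neurons Dhcr7 and Tm7sf2 (0.12 and 0.068) and in TH-like neurons Idi1 (0.059). No call in NP1-like neurons was among them. Fdps in PEP-like neurons, at -0.15 ± 0.06, was called the other way (0.33) with cells gated one by one. The scaling matters in TRPM8-like neurons, where the median log2 difference of all genes was -0.15 with TMM and 0.06 with RLE size factors, and small differences there should be read against that.

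Between the 3 groups, no member was called in neurons. Summed over all neurons of a mouse, the 29 genes made up 4054 and 4058 CPM in deficient, 4253 and 3941 CPM in supplemented and 4052 and 3527 CPM in wild type mice. The wild type mouse 699 had the lowest sum and mouse 698 overlapped the Ttpa-/- mice. Of 13330 genes tested, 0 were called (0%) in deficient against wild type, 0 (0%) in supplemented against wild type and 0 (0%) in deficient against supplemented neurons, by edgeR's quasi-likelihood test. At an unadjusted p under 0.05 there were 511, 492 and 315 genes, among them 1, 1 and 0 members. DESeq2 called 2, 14 and 0 genes and limma-voom 0 in each, and neither called a member. Both tests against wild type use the same 2 wild type mice.

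The signs of the differences were mostly positive. In deficient against wild type neurons 24 of 29 members had a positive log2 difference, with a median of 0.11 against 0.01 over all genes, of which 51.1% were positive. In supplemented against wild type neurons these were 24 of 29 and 0.11, against -0.01 over all genes. In deficient against supplemented neurons 17 of 29 were positive, with a median of 0.02. For the comparisons with supplemented mice the share of all genes that were positive is not given here. In CPM both deficient mice lay above both wild type mice for 13 members, where 16.2% of all genes did, and none lay below, where 15% of all genes did. Both supplemented mice lay above both wild type mice for 10 members, where 17.7% of all genes did, and below for 0, where 10.5% did. All 4 Ttpa-/- mice lay above both wild type mice for 5 members (Dhcr7, Fdft1, Insig1, Scd1 and Stard4), where 6.32% of all genes did, and below for 0, where 4.58% did.

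The shares of NP1-like and PEP-like neurons differed between Ttpa-/- and wild type mice. NP1-like neurons, the named class in which the members' sum was highest, made up 20.6% and 13.4% of neurons in deficient, 20.2% and 14.7% in supplemented and 11.2% and 8.13% in wild type mice. The 4 Ttpa-/- shares lay above the 2 wild type shares. PEP-like neurons went the other way, with 27.7% and 34.3% in deficient, 30.7% and 33.2% in supplemented and 38.1% and 36.0% in wild type mice. In the other named classes the Ttpa-/- and wild type shares overlapped. When the classes were given the same weight in every mouse, 21 of 29 members were positive in deficient and 17 of 29 in supplemented against wild type neurons, with medians of 0.04 and 0.01. For Fdps in deficient against wild type neurons the log2 difference was 0.24 ± 0.16 over all neurons and -0.06 ± 0.12 with the same class mix. Insig1 hardly moved, with 0.34 ± 0.14 and 0.35 ± 0.13. This weighting did not equalise the clusters within a class. The NP1-like cluster with the highest Insig1 level made up more of the NP1-like cells in the 4 Ttpa-/- than in the 2 wild type mice. The part of such cluster shares in the Insig1 difference was not tested by this fit. Without wild type mouse 699, 20 and 16 members were positive, and without supplemented mouse 670, 15 in supplemented against wild type neurons. The shares of all genes that were positive in these fits are not given here, so the counts lack a background.

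**Figure D3:**
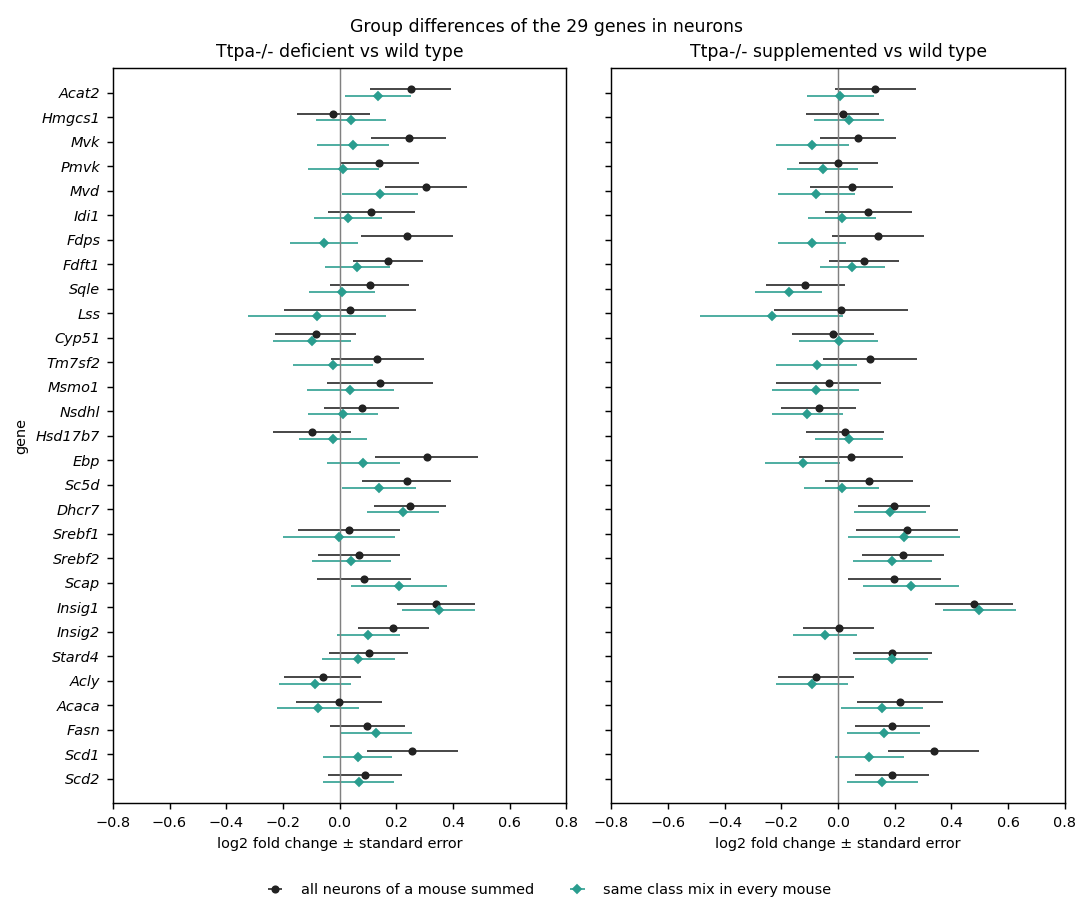
Log2 difference ± SE of each of the 29 genes in neurons (horizontal axis) for Ttpa-/- deficient (left) and Ttpa-/- supplemented (right) against wild type mice, from all neurons of a mouse summed (black) and with the same class mix in every mouse (green). With the same mix of classes, but not of clusters within them, most genes lie near 0, and Insig1 stays at 0.35 and 0.50.

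Insig1 had the smallest p of the members in both comparisons with wild type. Its level in neurons was 87.3 and 88.7 CPM in deficient, 91.6 and 106 CPM in supplemented and 76.5 and 62.8 CPM in wild type mice. Both wild type mice lay below the 4 Ttpa-/- mice, and mouse 699 was lowest. The 10 satellite glia markers, none of them at 0, summed in the same neurons to 890.4 and 764 CPM in deficient, 1094 and 1289 CPM in supplemented and 882 and 765 CPM in wild type mice. They were thus highest in the supplemented mice, while the deficient mice were close to the wild type. The median mitochondrial share was 2.62% and 4.13% in deficient, 2.52% and 3.498% in supplemented and 4.75% and 3.98% in wild type neurons. Their part in the Insig1 difference was not tested. The log2 difference was 0.34 ± 0.14 in deficient (edgeR adjusted p = 0.994) and 0.48 ± 0.14 in supplemented against wild type neurons (adjusted p = 0.755). Neither passed. Between deficient and supplemented neurons it was -0.14 ± 0.14 (adjusted p = 0.9996), and for both Ttpa-/- groups together against wild type 0.41 ± 0.12 (adjusted p = 0.916).

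The other members with the smallest p in deficient against wild type neurons were Mvd, Dhcr7, Mvk and Acat2, none of which passed. Mvd had 31.8 and 35.7 CPM in deficient, 31.3 and 26.4 CPM in supplemented and 28.5 and 26.3 CPM in wild type mice (0.31 ± 0.14). Dhcr7 had 53.5 and 51.6 CPM in deficient, 50.6 and 52.6 CPM in supplemented and 46.4 and 42.0 CPM in wild type mice (0.25 ± 0.13). For Dhcr7 all 4 Ttpa-/- mice lay above both wild type mice, while for Mvd supplemented mouse 671 lay among the wild type. Mvk had 42.3 and 46.5 CPM in deficient, 42.5 and 38.0 CPM in supplemented and 38.7 and 36.5 CPM in wild type mice (0.24 ± 0.13). Acat2 had 86.4 and 86.8 CPM in deficient, 92.3 and 70.5 CPM in supplemented and 77.3 and 68.3 CPM in wild type mice (0.25 ± 0.14). For Mvk and Acat2 the deficient mice lay above both wild type mice, while supplemented mouse 671 lay within the wild type range. The adjusted p of all 4 genes was 0.994.

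In supplemented against wild type neurons the next smallest p belonged to Scd1, Srebf2, Dhcr7 and Scd2, with an adjusted p of 0.9998 each. Scd1 had 226 and 198 CPM in deficient, 261 and 197 CPM in supplemented and 195 and 160 CPM in wild type mice (supplemented against wild type 0.34 ± 0.16). Mice 657 and 671 lay barely above wild type mouse 698. Srebf2 had 67.9 and 59.0 CPM in deficient, 72.9 and 71.4 CPM in supplemented and 52.5 and 68.3 CPM in wild type mice (0.23 ± 0.14). Scd2 had 795 and 771 CPM in deficient, 897 and 815 CPM in supplemented and 779 and 694 CPM in wild type mice (0.19 ± 0.13). For Srebf2 and Scd2 the supplemented mice lay above the wild type mice, and 1 or both deficient mice lay within the wild type range. Dhcr7, given above, differed by 0.20 ± 0.13.

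Between the 2 diets of Ttpa-/- mice the smallest p belonged to Mvd, Sqle, Insig2, Acaca and Ebp, with an adjusted p of 0.9996 each. Sqle had 128 and 140 CPM in deficient and 120 and 115 CPM in supplemented mice (0.22 ± 0.14). Insig2 had 79.4 and 72.4 CPM in deficient and 71.2 and 64.7 CPM in supplemented mice (0.19 ± 0.13). Acaca had 21.9 and 22.4 CPM in deficient and 29.2 and 23.5 CPM in supplemented mice (-0.22 ± 0.15). In these 3 genes the diets did not overlap, and the nearest mice of the 2 diets lay close together. The share of all genes without overlap between the diets is not given here, so this lacks a background. Ebp overlapped, with 65.3 and 65.6 CPM in deficient and 66.0 and 45.8 CPM in supplemented mice (0.26 ± 0.18), and Mvd, given above, differed by 0.26 ± 0.15.

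Within single classes no member was called either. In NP1-like neurons 0.01%, 0.121% and 0.01% of 9956 genes were called in deficient against wild type, supplemented against wild type and deficient against supplemented mice, and 0 of 29 members in each. In PEP-like neurons 0 of 29 members were called, where 0.0617%, 0.0529% and 0% of genes were. NF-like (0.00992%, 0% and 0%) and TH-like neurons (0%, 0% and 0%) also had 0 of 29. In NP2-like neurons 0 of 28 members that passed the low-count filter were called (0.0385%, 0% and 0% of genes), in NP3-like neurons 0 of 27 (0.0382%, 0.0254% and 0%) and in TRPM8-like neurons 0 of 12 (0%, 0.0768% and 0.0768%). At an unadjusted p under 0.05 NP1-like neurons had 1, 4 and 0 members in the 3 comparisons, beside 395, 734 and 510 genes. The 4 members in supplemented against wild type NP1-like neurons were Insig1, Fasn (0.38 ± 0.15), Scd2 (0.26 ± 0.12) and Nsdhl (-0.31 ± 0.15). Fasn stood at 56.9 and 49.1 CPM in deficient, 62.6 and 54.8 CPM in supplemented and 43.4 and 44.9 CPM in wild type mice, with both wild type mice lowest.

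Insig1 came nearest in NP1-like neurons. There it had 90.4 and 78.2 CPM in deficient, 95.5 and 99.6 CPM in supplemented and 68.2 and 57.3 CPM in wild type mice, without overlap between Ttpa-/- and wild type mice. Supplemented against wild type mice differed by 0.60 (adjusted p = 0.090), and deficient against wild type by 0.39. With no low-count filter the supplemented difference was 0.61 (adjusted p = 0.011), and with cells gated one by one 0.66 (adjusted p = 0.041), so that the call depended on the setting. Cluster 9, in which Insig1 was high, made up 20.8% and 20.8% of NP1-like cells in deficient, 17.7% and 26.8% in supplemented and 13.7% and 10.4% in wild type mice. Within cluster 9 alone Insig1 had 207 and 170 CPM in deficient, 200.4 and 211 CPM in supplemented and 163 and 162 CPM in wild type mice, and both Ttpa-/- groups against wild type differed by 0.26 (adjusted p = 0.871). Within cluster 1 it had 53.8 and 48.7 CPM in deficient, 57.5 and 54.2 CPM in supplemented and 42.5 and 36.8 CPM in wild type mice (0.39, adjusted p = 0.844).

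The other classes differed in how Insig1 stood between the groups. PEP-like neurons had 118 and 110 CPM in deficient, 112 and 126 CPM in supplemented and 90.0 and 71.2 CPM in wild type mice (0.46 and 0.52 against wild type). TH-like neurons had 92.5 and 111 CPM in deficient, 100.0 and 155 CPM in supplemented and 90.2 and 68.1 CPM in wild type mice (0.31 and 0.65). In both classes the wild type mice were lowest. NF-like neurons had 96.9 and 86.5 CPM in deficient, 94.5 and 91.2 CPM in supplemented and 83.3 and 73.6 CPM in wild type mice (0.20 and 0.22), again without overlap. TRPM8-like neurons gave at most 13 UMIs of Insig1 per mouse, too few to order the groups. NP2-like neurons, where Insig1 was low, had 29.3 and 37.2 CPM in deficient, 29.2 and 31.8 CPM in supplemented and 30.05 and 26.4 CPM in wild type mice (0.23 and 0.08), and the groups overlapped. NP3-like neurons had 39.5 and 39.8 CPM in deficient, 48.6 and 56.0 CPM in supplemented and 52.4 and 29.4 CPM in wild type mice (-0.06 and 0.36), with wild type mice at both ends.

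Fits in each of 19 neuron clusters, 76 with the 4 comparisons, were made after these values had been seen. Insig1 was positive for both Ttpa-/- groups against wild type in 18 of 19, the exception being NP1-like cluster 17 (-0.22). Of 1872 genes tested in every cluster, 50 (2.67%) were positive in as many clusters or more. Of the 12 members among those genes, Insig1 was the only 1. The single call was in PEP-like cluster 6, led by Sstr2, where 0.162% of genes were called: 137 and 150 CPM in deficient, 177 and 110 CPM in supplemented and 93.4 and 68.8 CPM in wild type mice, a log2 difference of 0.78 ± 0.18 (adjusted p = 0.047). It was lost without mouse 657, 670 or 699 (adjusted p = 0.143, 0.228 and 0.493) and kept without mouse 654, 671 or 698. Clusters share mice, so they are not replicates of the group difference.

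**Figure D4:**
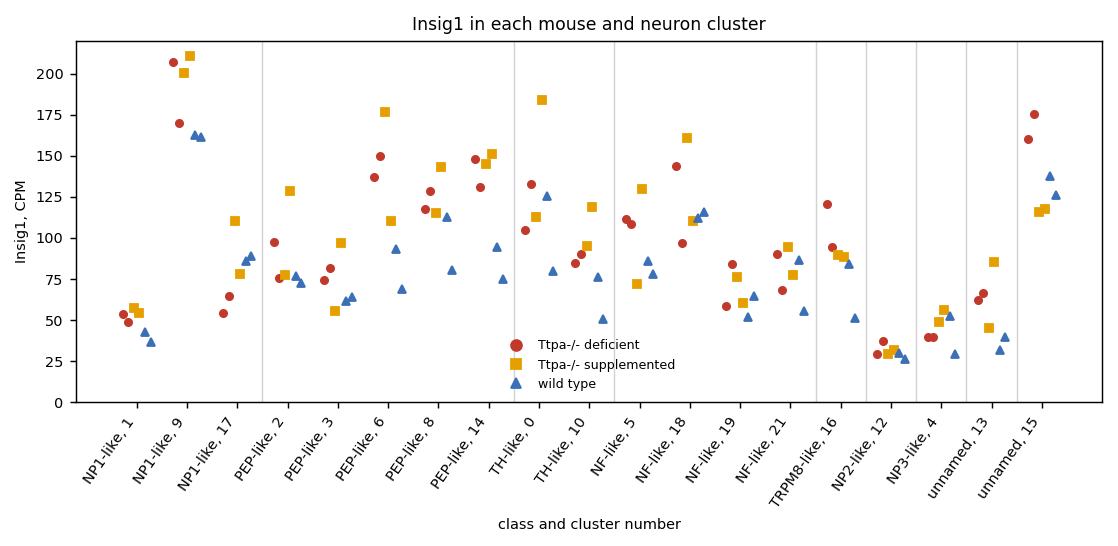
Insig1 level in CPM (vertical axis from 0) in each mouse and each of 19 neuron clusters, ordered by class, with Ttpa-/- deficient, Ttpa-/- supplemented and wild type mice from left to right in each cluster. Wild type mice (triangles) are at or near the bottom of most clusters, and NP1-like cluster 9 stands well above NP1-like clusters 1 and 17.

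Satellite glia wrap the neuron bodies, and glia of this lineage are known for making cholesterol. A cluster of 456 cells, with Apoe among its leading genes, was called satellite-glia-like. It was thin, with 17 cells in mouse 657 and 28 in mouse 699, and not free of other RNA. Its summed pan-neuronal markers stood at a median of 11108 CPM, against 13202 CPM in neurons, and its satellite glia markers at 7975 CPM, against 886 CPM in neurons. The summed PEP-like markers stood at a median of 6878 CPM in these glial cells, against 3487 CPM in neurons and 8456 CPM in PEP-like neurons. The part of neuronal RNA in the glial values was not tested. Summed over the members it held a median of 4650 CPM, with a range of 4432 to 5737, against 4053 CPM in neurons. Against neurons of the same mice, 2 members were higher, where 11.9% of genes were, and 8 were lower, where 22.2% were.

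Hmgcs1 and Srebf2 were the 2 members called higher in glia. Srebf2 had 72.1, 118 and 179 CPM as lowest, median and highest in satellite-glia-like cells, against 52.5, 68.1 and 72.9 CPM in neurons (0.60 ± 0.18, adjusted p = 0.0034). Glia were higher in 6 of 6 mice, and the call was lost without mouse 654 (adjusted p = 0.053). Hmgcs1 had 547, 699 and 902 CPM in glia, against 439, 464 and 480 CPM in neurons (0.25 ± 0.10, adjusted p = 0.034), without overlap, and its call was lost without mouse 657, 670, 671 or 698 (adjusted p = 0.057, 0.12, 0.11 and 0.088). Scd2 had 973, 1141 and 1403 CPM in glia, against 694, 787 and 897 CPM in neurons, also without overlap, but did not pass (0.19 ± 0.09, adjusted p = 0.084). In PEP-like neurons alone the medians of Srebf2, Hmgcs1 and Scd2 were 89.9, 659 and 964 CPM, nearer to those in glia. Glia were not tested against PEP-like neurons. The scale of this comparison shifts with the method: the median log2 difference of all genes was -0.22 with TMM and -0.06 with RLE size factors. With RLE 5 members were higher and 8 lower, and the share of all genes called with it is not given here.

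The members lower in glia were sterol and mevalonate enzymes that were high in NP1-like neurons, and Acly. Ebp had 17.9, 26.6 and 50.1 CPM in glia, against 44.8, 63.2 and 66.0 CPM in neurons (-1.42 ± 0.29, adjusted p = 8.3e-06). Pmvk had 82.0, 121 and 177 CPM in glia, against 186, 210 and 232 CPM in neurons (-1.06 ± 0.15, adjusted p = 7.4e-11). Fdps had 98.4, 151 and 276 CPM in glia, against 169, 209 and 243 CPM in neurons (-0.81 ± 0.15, adjusted p = 2.4e-07). Of these, Pmvk alone did not overlap. Tm7sf2 (-1.54 ± 0.43), Mvd (-1.18 ± 0.39), Fdft1 (-0.72 ± 0.15), Acat2 (-0.72 ± 0.22) and Acly (-0.48 ± 0.10) were the rest. With cells gated one by one by their markers, 14 members were called higher in glia, and Acly was among them (0.24, adjusted p = 7.1e-05). The share of all genes called with gated cells is not given here, so this count lacks a background. Tm7sf2 and Mvd rested on at most 4 UMIs per mouse in glia. The call of Mvd was lost without mouse 671 (adjusted p = 0.069), and that of Acat2 without mouse 670 or 671 (0.052 and 0.056). A difference of the group effect between glia and neurons was called for no member, with 0 of 29 called in deficient against wild type (0% of all genes), supplemented against wild type (0.0402%), deficient against supplemented (0%) and both Ttpa-/- groups against wild type mice (0.0161%).

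**Figure D5:**
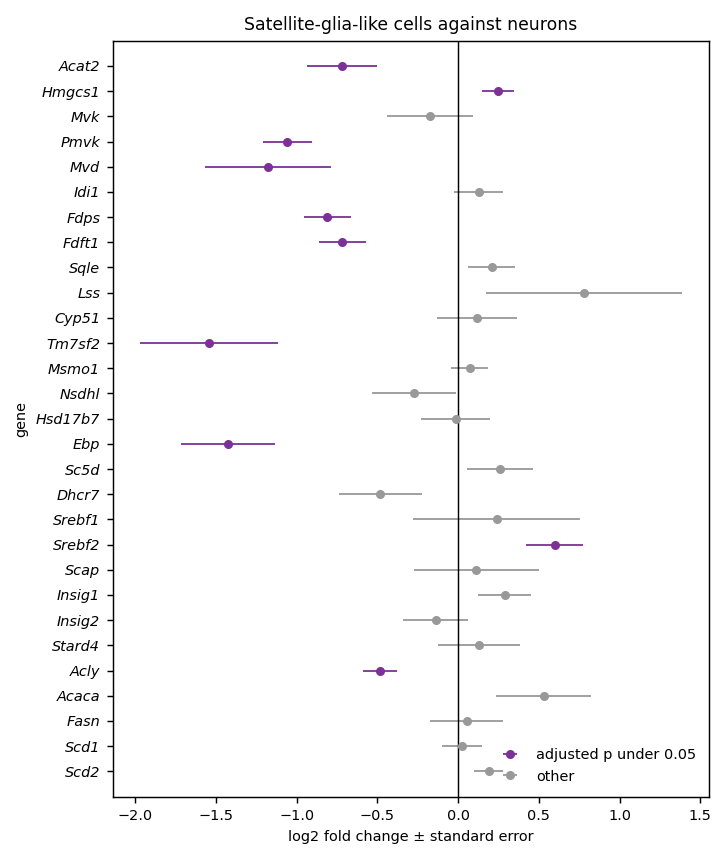
Log2 difference ± SE (horizontal axis) of the 29 genes between satellite-glia-like cells and neurons of the same 6 mice, with members past an edgeR adjusted p of 0.05 in purple. Srebf2 and Hmgcs1 lie right of 0, and Tm7sf2, Ebp, Mvd and Pmvk lie below -1.

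Neighbouring steps of lipid metabolism were read from 4 further gene lists. In neurons 0 of their genes were called between groups, where 0% of all genes were. Across classes, the list of fatty acid elongation, desaturation and precursor supply had 10 of its 18 tested genes higher and 5 lower in NP1-like neurons, among them the elongation enzymes Elovl6 (1.13 ± 0.08) and Tecr (0.92 ± 0.06) higher and Elovl5 (-0.82 ± 0.06) lower. Elovl5 was higher in TRPM8-like neurons (2.45 ± 0.09), and Thrsp, a regulator of lipogenesis, in NF-like neurons (4.94 ± 0.23). The isoprenoid branches had 6 of 10 genes higher and 3 lower in TH-like neurons, with Coq2 of the ubiquinone branch (0.69 ± 0.06) and the farnesyltransferase subunit Fnta (0.70 ± 0.07) higher. In NP1-like neurons, where Fdps peaked, 2 of these 10 were higher and 3 lower. SREBP processing genes had 5 of 9 higher and 3 lower in NF-like neurons, with Sec23a (1.09 ± 0.05), of the coat that carries SCAP out of the endoplasmic reticulum, and 2 higher and 5 lower in NP1-like neurons. Sterol export, storage and oxidation had 8 of 12 higher and 1 lower in NF-like neurons, with Lpin1 (1.79 ± 0.05), a phosphatidate phosphatase, and 3 higher and 6 lower in NP1-like neurons. Abca1, the exporter of cellular cholesterol, was higher in NP1-like (1.11 ± 0.07), TH-like (0.85 ± 0.07) and NP3-like neurons (1.42 ± 0.08) and lower in NP2-like neurons (-2.13 ± 0.15). Of all genes, 34.7% were higher and 31.1% lower in NP1-like, 36.4% and 26.7% in TH-like and 40.6% and 30.4% in NF-like neurons. Several of these counts lie near those shares and are not read as results about the lists.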

How the data were processed

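Single-cell 3' libraries of dorsal root ganglia from 6 mice (10x Chromium v2) were analysed from the deposited table, which holds raw UMI counts per gene and cell, not normalized by the authors. Per the submitters' processing notes, the build was mm10 and Cell Ranger 2.0.1, bcl2fastq 2.17.1.14, Seurat 2.3.0 and limma 3.32.10 were used. The steps that selected cells and counted reads are not given in the sources used here. Each cell was assigned to its mouse by the number after the hyphen in its name. The mice are separate animals.

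From these counts, cells with under 500 genes or over 20% mitochondrial UMIs (27 cells) and 634 predicted doublets were removed (0.8% per 1000 cells, since the automatic threshold marked 45), and 21024 cells were kept. Between 9 and 23 barcodes were shared by any 2 libraries. Clusters came from 2000 variable genes without the members (2 of which would have been among them), 30 principal components, 15 neighbours and Leiden resolution 1 (scanpy 1.11.5, Python 3.11.15). A cluster was named by its markers, at a fold of 1.5 (after adding 5 CPM) and 5% detection, with 3 markers or more, from 16 sets. This naming rule was set after the clusters had been seen.

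UMI counts were summed per mouse and class, and tested with edgeR 4.0.16 (R 4.3.3): TMM scaling, filterByExpr, the quasi-likelihood F test, and Benjamini-Hochberg adjustment over all genes tested, with a threshold of 0.05. All adjusted p-values printed without a tool come from this fit. Group fits shared 1 estimate of the spread over the 6 mice (biological coefficient of variation 12.3% in neurons). Class and glia fits had the mouse as a block. The alternatives were DESeq2 1.42.0, limma-voom 3.58.1, RLE size factors, no filter, sex as a term, doublets kept, thinned sums, other ways of forming classes, and leaving out each mouse. The 29 genes are all reported, with values by mouse for the 5 with the smallest p in each group comparison in neurons, and as lowest, median and highest for the highest and lowest classes. Members, lists and tests were chosen with earlier results of these data known. Of the further lists, Spring1 has no row in the table and its list was tested without it. Sums per mouse held 58770 to 147491 UMIs in TRPM8-like neurons, 39914 to 195232 in glia and 686026 to 5577776 in the other named classes, so low levels are least precise in the first 2. Promoter stretches and motif counts came from RefSeq sequence of GRCm38.p6, and gene positions from GENCODE vM21.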

Additional observations from a re-analysis of the deposited data

How the results depend on the processing

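Of the 148 calls of a member in a neuron class, 138 were kept with DESeq2, 139 with RLE size factors, 144 with limma-voom, 143 with no low-count filter, 145 with doublets kept and between 136 and 141 without any 1 mouse. With no replicate block 139 were kept and 9 were lost. In the group comparisons the mouse number could not be a block, because the groups share no mouse numbers. Each group holds 1 female and 1 male, and with sex as a term 0 members were called in neurons or within classes, and 25, 23 and 16 of 29 were positive in deficient against wild type, supplemented against wild type and deficient against supplemented neurons. In the same fit 2 genes were called in deficient against wild type neurons, against 0 without the term. The share of all genes that were positive in it is not given here. Cells gated one by one by their markers kept 118 of 137 calls, clusters formed with the members allowed 133 of 139, and leaving out TRPM8-like neurons, chosen after seeing the data, 132 of 139. The gate put 32.9% of PEP-like and 86.2% of NP3-like cells in the same class, the lowest and highest shares among classes other than TRPM8-like (14.2%). Doublets kept gave no glial class, and gating and allowed members gave no TRPM8-like class.

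Members called higher and lower between classes were 18 and 13 with thinned sums, against 80 and 68, where 10 members passed the filter at the depth of TRPM8-like neurons. In glia the members higher were 5 with RLE size factors, 14 with gated cells and 1 to 2 without 1 mouse, against 2, and those lower were 5 with DESeq2 and 0 with thinned sums, against 8. Within classes, 1 member, Insig1 in NP1-like neurons, was called in supplemented against wild type mice with gated cells or with no low-count filter, and 1 in both Ttpa-/- groups against wild type mice with no filter, against 0. Positive members in supplemented against wild type neurons ranged from 15 (without mouse 670) to 26 (without mouse 698). The shares of all genes under these settings are not given here, so these counts lack a background.

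Some log2 differences changed sign. With gated cells Fdps in PEP-like neurons was 0.33 (adjusted p = 2.4e-05), Fdps and Tm7sf2 in NP2-like neurons 0.026 and 0.0066, Fdft1 in TH-like neurons -0.016, Acly in PEP-like neurons -0.068 and in glia 0.24 (adjusted p = 7.1e-05), and Insig1 in NF-like neurons (deficient against wild type) -0.021. Acly in PEP-like neurons was also -0.042 with members allowed, -0.071 without TRPM8-like neurons and -0.081 when thinned as well, where Dhcr7 in NF-like neurons was -0.031. With thinned sums Hmgcs1 in NP1-like neurons was -0.13, Idi1 and Sqle in TH-like neurons -0.036 and -0.39, Fdps in TRPM8-like neurons 0.0055, Fdft1 and Acly in glia 0.17 and 0.10, and Insig1 in NP2-like neurons (deficient against supplemented) -0.00092. With doublets kept Insig1 in NF-like neurons (deficient against supplemented) was 0.0100.

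Without 1 mouse, Insig1 ranged as follows. In deficient against wild type mice it lay between -0.025 and 0.39 in NP2-like and between -0.43 and 0.35 in NP3-like neurons. In supplemented against wild type mice it lay between -0.038 and 0.17 in NP2-like and between -0.0046 and 0.78 in NP3-like neurons. In deficient against supplemented mice it lay between -0.17 and 0.065 in PEP-like, -0.62 and 0.047 in TH-like, -0.084 and 0.046 in NF-like and -0.10 and 0.31 in NP2-like neurons. For both Ttpa-/- groups against wild type mice it lay between -0.22 and 0.57 in NP3-like neurons. The cause of these changes was not tested. Depth limits TRPM8-like neurons and glia most.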
